A study of Homo sapiens with 8 samples.

Results

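The genes of antigen presentation were followed in KM-H2, an established Hodgkin lymphoma cell line, through 9 members: the class I genes HLA-B, HLA-C, B2M and TAP1, the class II genes HLA-DRA, HLA-DPA1, HLA-DMA and CD74, and the class II regulator CIITA. All probes whose identifier mapped to one of these symbols were taken, which gave 13 probes of the 41000 on the array, or 9 of the 16557 genes named on it. Of these, 5 were class I probes, 6 were class II probes and 2 were CIITA probes. HLA-B, HLA-DPA1, HLA-DMA and CIITA were each measured by 2 probes and the other 5 genes by 1. Each of the 13 probes was well above background in all 8 channels, and all 13 were among the 17912 probes retained after filtering on detection and on agreement between labellings.

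The EV cells carried the empty pMSCV-PIG vector and the sponge cells (miR-155-sp in the labels) carried a vector whose transcript is designed to soak up miR-155 on its binding sites. GFP-positive cells of both populations had been sorted. Total RNA (T) and RNA co-precipitated with Ago2, the protein that miRNAs guide to their targets (IP), were hybridized to 4 arrays in 2 colours with a dye swap. There were thus 4 RNA samples, each labelled once with Cy3 and once with Cy5. As both labellings come from 1 RNA, every group is 1 sample, no difference below has a replicate check and no test was possible. Values in brackets after a mean show the technical spread. For signals and their changes they are the Cy3 and then the Cy5 labelling, and for IP/T the orientation with IP in Cy5 and then its swap. The small number of arrays limits the precision, and more spots exceeded background in Cy3 (58.9% to 61.9%) than in Cy5 (38.8% to 43.4%). The arrays do not measure mature miR-155, so capture by the sponge was not checked here.

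Class I molecules pair a heavy chain such as HLA-B or HLA-C with the light chain beta-2-microglobulin (B2M) and show peptides from inside the cell to CD8+ T cells. Their peptides are cut by the proteasome and carried into the endoplasmic reticulum by the transporter of which TAP1 is a subunit. Class II molecules are pairs of an alpha and a beta chain, such as HLA-DRA and HLA-DPA1 with their partners, which travel to endosomes with the invariant chain CD74 and load peptides there with help from HLA-DM, of which HLA-DMA is the alpha chain. CIITA does not bind DNA itself. It is brought to class II promoters by factors that sit on the X and Y boxes and switches the class II genes on. Loss of antigen presentation is a known feature of many Hodgkin lymphomas, and KM-H2 is known to carry a rearranged CIITA gene. Where each CIITA probe lies on the transcript is not given in the sources used here.

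MiR-155-5p, the mature miRNA the sponge is built to capture, guides Ago2 to mRNAs mainly through its seed, bases 2 to 8, shown in capitals. The sequence is from RefSeq (GRCh38.p14, chr21:25573983-25574006, plus strand). No transcript sequences were used here, so no member was searched for seed matches.
hsa-miR-155-5p: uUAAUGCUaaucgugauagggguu

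Promoter sequence from RefSeq (GRCh38.p14) was found for 7 of the 9 members. HLA-DRA and CIITA had no entry. The windows covered 250 bases before to 50 bases after the annotated start, and HLA-DPA1 and TAP1 had 2 windows each, which made 9 windows. Shown are 5 windows, of class II and class I genes, chosen because they hold motif matches. Both HLA-DPA1 windows and 1 TAP1 window held no match and are not shown, nor is HLA-C, which had CCAAT boxes alone like HLA-B. Class I and class II genes are known to share the promoter elements through which CIITA acts. Each line below gives the 160 bases that end just before the start, on the strand of the gene, with matches in capitals. The motifs searched on both strands were the CCAAT box (CCAAT, the letters of the Y box bound by NF-Y), an interferon element (GAAANNGAAA) and, added after the promoters had been looked at, a core of the X box (AGNNACNGATG).
HLA-DMA, class II (chr6:32953098-32953257, minus strand): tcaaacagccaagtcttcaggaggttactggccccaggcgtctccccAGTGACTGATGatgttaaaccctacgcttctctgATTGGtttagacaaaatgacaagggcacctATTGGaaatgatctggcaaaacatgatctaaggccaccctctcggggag
CD74, class II (chr5:150412911-150413070, minus strand): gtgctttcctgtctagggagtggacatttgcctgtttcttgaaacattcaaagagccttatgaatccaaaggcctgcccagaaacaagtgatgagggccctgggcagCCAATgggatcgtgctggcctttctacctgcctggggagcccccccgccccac
HLA-B, class I (chr6:31357180-31357339, minus strand): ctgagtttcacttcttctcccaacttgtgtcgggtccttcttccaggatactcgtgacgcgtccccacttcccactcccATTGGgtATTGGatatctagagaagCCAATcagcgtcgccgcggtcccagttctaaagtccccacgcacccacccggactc
B2M, class I (chr15:44711357-44711516, plus strand): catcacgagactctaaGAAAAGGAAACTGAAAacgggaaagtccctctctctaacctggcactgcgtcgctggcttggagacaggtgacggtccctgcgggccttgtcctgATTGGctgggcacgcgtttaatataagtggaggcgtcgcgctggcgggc
TAP1, class I (chr6:32853705-32853864, minus strand): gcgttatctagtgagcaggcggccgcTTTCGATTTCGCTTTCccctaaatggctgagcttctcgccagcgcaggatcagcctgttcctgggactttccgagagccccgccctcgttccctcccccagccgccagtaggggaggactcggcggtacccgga

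A CCAAT box was present in 6 of the 9 member windows, and in 34.6% of all 35116 promoter windows in the table. The interferon element was present in 2 of the 9, those of B2M and TAP1, against 3.57% of all windows. In both genes 2 matches overlapped, beginning at positions -144 and -138 from the start in B2M and at -134 and -128 in TAP1. The X core was present in 1 member window, that of HLA-DMA at position -113, against 0.817% of all windows. A match describes these letters only and is not a measured binding site.

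The 13 probes were bright in total RNA. In EV cells the mean log2 signal in total RNA was 15.87 for B2M, 15.58 for HLA-C, 15.00 and 14.14 for the HLA-B probes and 13.38 for TAP1. For the class II genes it was 14.90 and 12.94 for the HLA-DPA1 probes, 13.64 for HLA-DRA, 12.16 and 12.10 for the HLA-DMA probes and 11.21 for CD74. The CIITA probes gave 12.28 and 9.09, and the median of all retained probes was 9.37. Class I probes thus had a median signal of 15.00 and class II probes of 12.55. These values are given side by side and not compared, since the brightness of a probe also depends on its sequence and 2 probes of CIITA alone differed by 3.19 on the log2 scale. HLA genes are closely related, so a probe may also bind RNA of a neighbouring gene, and the alleles of KM-H2 may differ from the probe. Neither was tested.

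**Figure D1:**
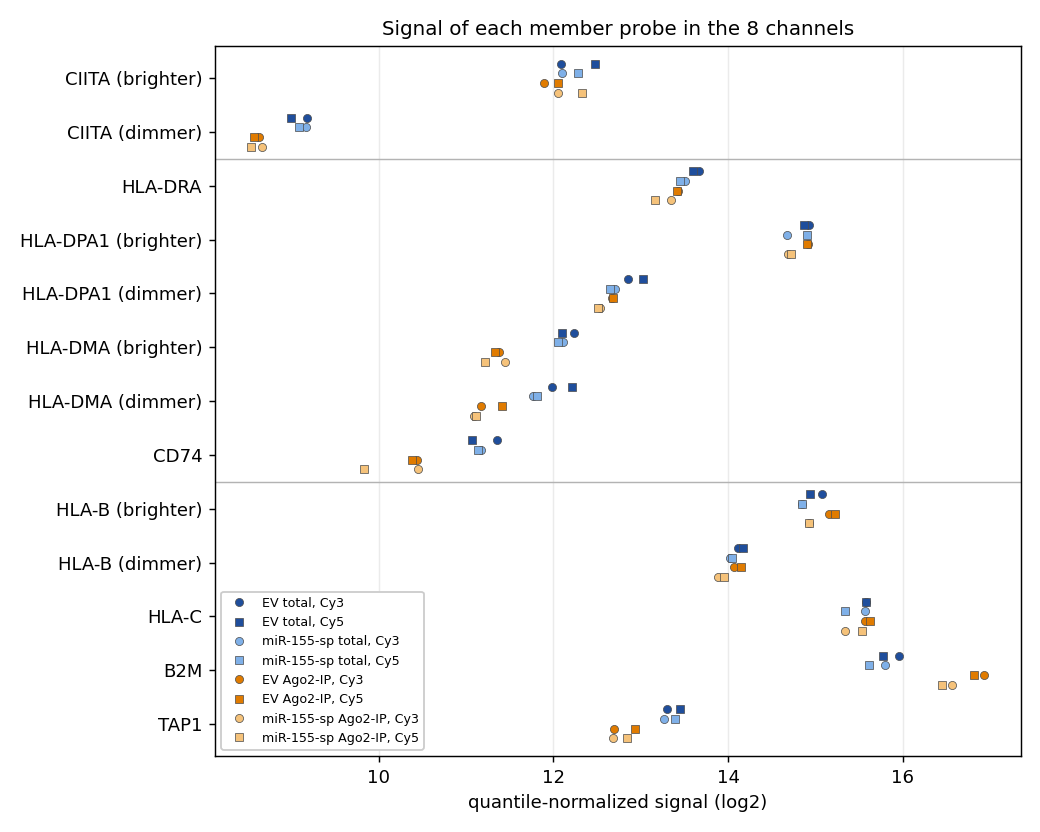
Quantile-normalized log2 signal (x axis) of the 13 member probes (rows) in the 4 RNA samples, with circles for Cy3 and squares for Cy5 labellings. Grey lines separate CIITA, class II and class I probes. B2M is the probe whose IP signals (orange) lie to the right of its total RNA signals (blue) by about 1 log2 unit, while those of CD74, HLA-DMA and TAP1 lie to the left.

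The first comparison was between the Ago2-IP and the total RNA, which asks how much of a transcript was recovered in the IP relative to all transcripts. No control IP was among the samples, so RNA recovered without binding to Ago2 was not measured. In EV cells 5 of 6 class II probes and both CIITA probes had a mean IP/T below 1, as did 10864 of the 17912 retained probes. HLA-DMA (percentiles 20.7 and 20.5 of IP/T among retained probes) and CD74 (21.0) were low. HLA-DRA (51.0), HLA-DPA1 (61.1 and 48.9) and CIITA (46.6 and 37.0) lay nearer the middle. The class I heavy chains were close to a ratio of 1 and B2M was higher in the IP. The median log2 IP/T was 0.02 for the class I probes (0.05 and -0.02) and ranged from -0.56 for TAP1 to 1.00 for B2M. For the class II probes the median was -0.53 (-0.42 and -0.49) and the range was -0.81 to 0.01. Over all retained probes the median was -0.24. Bright probes gave similar medians, with -0.16 for the 1636 retained probes in the signal range of the class I members and -0.23 for the 4633 in that of the class II members. The class II median depended on the processing. With normexp background correction and loess it was -0.25, and with labellings required to be within 1.5-fold it was -0.26.

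Counted over dye orientations, IP/T in EV cells was below 1 in both orientations for 5 of 6 class II probes, 2 of 2 CIITA probes and 1 of 5 class I probes. Of all retained probes 51.6% were below 1 in both. IP/T was above 1 in both orientations for 2 class I probes, B2M and the brighter HLA-B probe, and for no class II or CIITA probe, against 32.6% of retained probes. In EV cells 1 of the 13 probes, that of B2M, had a ratio of at least 2, a level that 14.8% of retained probes reached. No member had a ratio of 0.5 or less, against 12.9%. In the sponge cells both orientations were below 1 for 5 of 6 class II, 1 of 2 CIITA and 3 of 5 class I probes, against 51.9%, and both were above 1 for the same B2M and HLA-B probes, against 32.4%. The members thus split among themselves, with class II at or below 1 and B2M above it.

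B2M, the light chain common to all class I molecules, had log2 signals of 15.96 (Cy3) and 15.77 (Cy5) in EV total RNA and of 16.93 and 16.81 in EV IP. In sponge cells the signals were 15.79 and 15.62 in total RNA and 16.56 and 16.45 in IP. The IP/T of B2M was above 1 in both orientations of both cell populations. Among retained probes it was at percentile 85.3 in EV cells and 81.3 in sponge cells. Of all retained probes 32.6% were above 1 in both orientations in EV cells and 32.4% in sponge cells. IP/T was 2.00 in EV cells (1.80 and 2.23) and 1.75 in sponge cells (1.58 and 1.93). The mean in EV cells sat on the 2-fold line and was below it under several other processings, so the count of 1 enriched member is no firm call, although every processing tried gave a log2 IP/T between 0.85 and 1.16.

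The heavy chains showed little difference between fractions. IP/T in EV cells was 1.01 for HLA-C (1.04 and 0.990), 1.14 for the brighter HLA-B probe (1.11 and 1.17) and 0.977 for the dimmer one (1.02 and 0.935). HLA-B was thus above 1 in both orientations on only 1 of its probes, and the probes differed by 0.22 in log2 IP/T. TAP1 differed from the other class I members. It had a ratio of 0.676 in EV cells (0.775 and 0.590) and 0.675 in sponge cells (0.745 and 0.611), below 1 in both orientations of both cell populations.

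Among class II genes the lowest ratios were those of the loading helpers. HLA-DMA had IP/T ratios of 0.572 (0.536 and 0.611) and 0.570 (0.669 and 0.485) in EV cells, so that its 2 probes were 0.01 apart on the log2 scale. On the brighter HLA-DMA probe the log2 signals were 12.23 and 12.09 in EV total RNA, 11.38 and 11.33 in EV IP, 12.11 and 12.06 in sponge total RNA and 11.45 and 11.22 in sponge IP. The IP/T of this probe was below 1 in both orientations of both cell populations. Among retained probes it was at percentile 20.7 in EV cells and 24.5 in sponge cells. Of all retained probes 51.6% were below 1 in both orientations in EV cells and 51.9% in sponge cells.

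CD74, the invariant chain that guards the class II groove, had log2 signals of 11.36 and 11.07 in EV total RNA and of 10.44 and 10.39 in EV IP. In sponge cells they were 11.17 and 11.13 in total RNA and 10.45 and 9.83 in IP, and the low Cy5 value stood apart from the other 3 IP labellings. IP/T was 0.575 in EV cells (0.511 and 0.646) and 0.496 in sponge cells (0.396 and 0.622). CD74 was therefore the only member at or below 0.5 in sponge cells, where 14.1% of retained probes were, and it was so in 1 orientation of 2. No member reached 2 in these cells, against 15.6%.

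The antigen-binding alpha chains were nearer to 1. HLA-DRA had a ratio of 0.861 in EV cells (0.837 and 0.885) and 0.858 in sponge cells (0.789 and 0.933). HLA-DPA1 had 1.01 on its brighter probe (0.984 and 1.03) and 0.834 on its dimmer one (0.891 and 0.781) in EV cells. The brighter HLA-DPA1 probe was the one class II probe not below 1 in both orientations.

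For CIITA both probes were below 1 in EV cells, with ratios of 0.809 (0.981 and 0.668) on the brighter probe and 0.715 (0.657 and 0.778) on the dimmer one. In sponge cells the dimmer probe gave 0.694 (0.648 and 0.743) and was again below 1 in both orientations. The brighter probe gave 1.00 (1.18 and 0.852), with the orientations on opposite sides of 1.

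**Figure D2:**
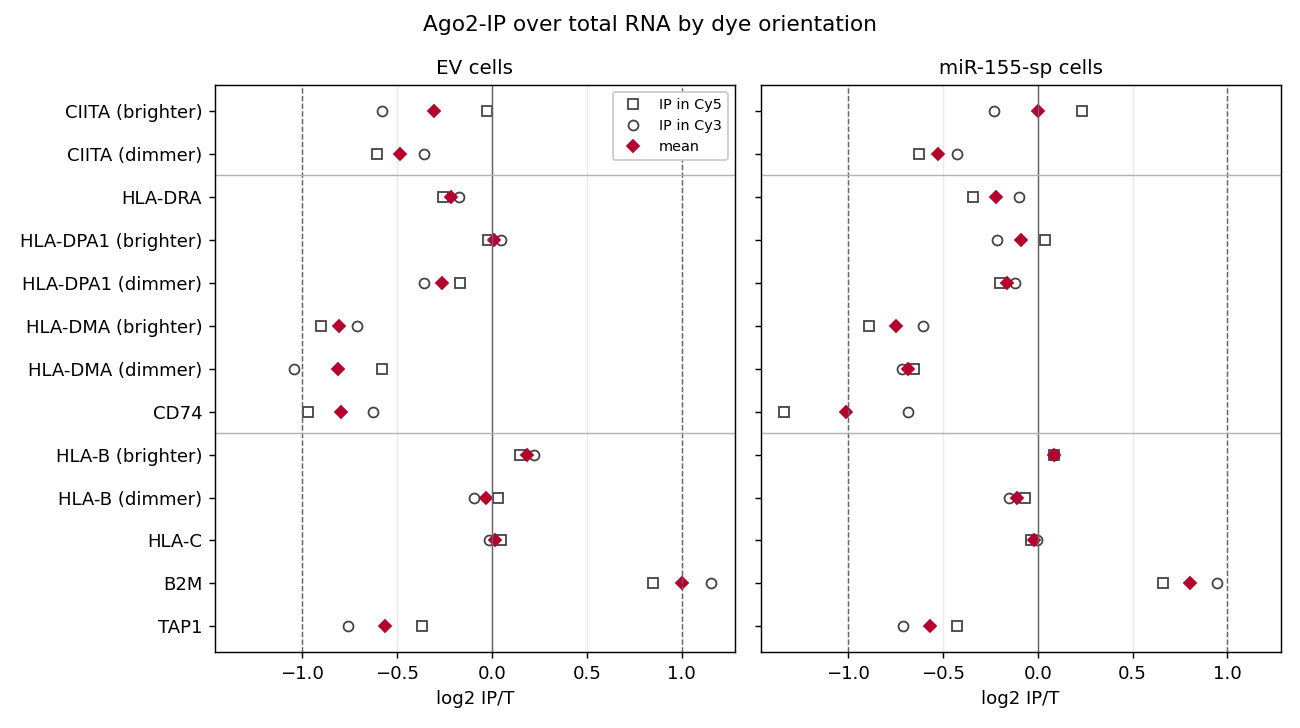
Log2 IP/T (x axis) of each member probe (rows) in EV cells (left) and sponge (miR-155-sp) cells (right), with squares for IP in Cy5, circles for IP in Cy3 and red diamonds for the mean. Dashed lines mark 2-fold. B2M lies near 1 in EV cells and at 0.80 in sponge cells, the HLA-B and HLA-C probes lie near 0, and CD74, HLA-DMA and TAP1 lie below 0 in all orientations.

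The second comparison was between sponge and EV cells in total RNA, which asks whether transcript levels differed in cells that carry the sponge. Differences were small. The mean was lower in sponge cells for 12 of 13 member probes, against 8952 of the 17912 retained probes. The median log2 change of the members was -0.11, with a range of -0.31 to 0.04, while the median of all retained probes was 0.00. The exception was the dimmer CIITA probe at 0.04. The medians were -0.12 (-0.09 and -0.12) for class I and -0.13 (-0.17 and -0.10) for class II. No member changed 2-fold, and 0.363% of retained probes did. None was higher in both labellings, against 32.4%. Scaling each channel to a common median instead gave -0.05 for class I and -0.11 for class II.

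Both labellings were lower in sponge cells for 5 of 5 class I probes, 4 of 6 class II probes and 0 of 2 CIITA probes. Of all retained probes 32.9% were lower in both, as were 38.8% of those in the signal range of the class I members and 37.2% of those in that of the class II members. The genes share cells and labelling reactions, so the probes are not independent of each other. In these bulk RNA samples, fewer cells that express a gene and less of its RNA per cell cannot be told apart.

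Among class I genes, the log2 change of B2M in total RNA was -0.16 (-0.17 and -0.15). The brighter HLA-B probe was at -0.16 (-0.23 and -0.09) and the dimmer one at -0.11 (-0.09 and -0.12). HLA-C was at -0.12, which rested on the Cy5 labelling (-0.24), since the Cy3 labelling was within 0.01 of no change. TAP1 was the nearest to 0 at -0.05 (-0.04 and -0.06). All 5 probes had the same direction in both labellings, and B2M and TAP1 were the closest between labellings.

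Among class II genes, the dimmer HLA-DMA probe had the largest difference, -0.31 (-0.22 and -0.40), but the brighter probe of the same gene gave -0.08 (-0.12 and -0.04). HLA-DPA1 likewise gave -0.26 (-0.15 and -0.38) on its dimmer probe and -0.11 (-0.24 and 0.03) on its brighter one. In both genes the probes had the same sign and the dimmer one gave the larger change. HLA-DRA had log2 signals of 13.67 and 13.60 in EV total RNA against 13.51 and 13.45 in sponge total RNA. Its change of -0.16 (-0.16 and -0.15) was at percentile 22.6 of all retained probes. CD74 was at -0.06, with labellings on opposite sides of 0 (-0.19 and 0.06).

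CIITA showed no common direction in total RNA. The brighter probe had log2 signals of 12.08 and 12.48 in EV cells and 12.09 and 12.29 in sponge cells, a change of -0.09 (0.01 and -0.19). The dimmer probe had a Cy3 signal of 9.18 against 9.17 and a Cy5 signal that was 0.09 higher, a change of 0.04 (-0.01 and 0.09). On each probe the 2 labellings of a sample differed by more than the means of the cell populations did.

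The third comparison was the sponge change in the IP and in IP/T, which asks whether the members were less represented in the Ago2-IP of cells that carry the sponge. In the IP RNA 12 of 13 member probes were lower in sponge cells, against 9183 of the 17912 retained probes. The median log2 change was -0.18 for class I and -0.17 for class II. Both labellings were lower for 5 of 5 class I probes, 4 of 6 class II probes and 0 of 2 CIITA probes, against 32.6% of retained probes. Both were higher for 1 probe, the brighter one of CIITA, against 30.5%. Because total RNA was lower as well, the change of log2 IP/T was near 0, with medians of -0.08 for class I (-0.09 and -0.06) and 0.03 for class II (-0.05 and 0.09). The mean IP/T was lower in sponge cells for 9 of 13 member probes, against 9012 of the 17912 retained probes. Scaled to a common median the count of members was 4 and the class I median was 0.03, and with the Cy3 labellings alone the count was 3.

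IP/T was lower in both dye orientations for 3 of 5 class I, 1 of 6 class II and 1 of 2 CIITA probes, against 30.3% of retained probes. It was higher in both for 1 class II probe, the brighter HLA-DMA probe (0.06, with 0.01 and 0.10), and for the brighter CIITA probe, against 30.6%. No member changed 2-fold in IP/T, and 1.45% of retained probes did.

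B2M had the largest difference in the IP, a log2 change of -0.36 in each labelling, or 0.778 of its level in EV cells. Its log2 IP/T was lower by 0.20 (-0.19 and -0.21), and the orientations lay within 0.02 of each other. The 2 HLA-B probes gave -0.10 (-0.06 and -0.14) and -0.08 (-0.10 and -0.06), while HLA-C and TAP1 had orientations on opposite sides of 0. CD74 had the lowest value, -0.21, but it rested on 1 orientation (-0.37 and -0.06), the one that holds the low Cy5 value of its IP.

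CIITA gave the largest positive change of IP/T among the members, on 1 of its probes. The brighter probe had log2 signals of 11.90 and 12.05 in EV IP and 12.05 and 12.33 in sponge IP, a change of 0.22 (0.16 and 0.27). Its log2 IP/T was 0.31 higher in sponge cells (0.26 and 0.35), at the 85.4th percentile of all retained probes, and positive under every processing tried, from 0.15 with the Cy3 labellings alone to 0.47 with the Cy5 labellings alone. The dimmer probe gave -0.04 (-0.02 and -0.07), so the 2 CIITA probes were 0.35 apart in this change.

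**Figure D3:**
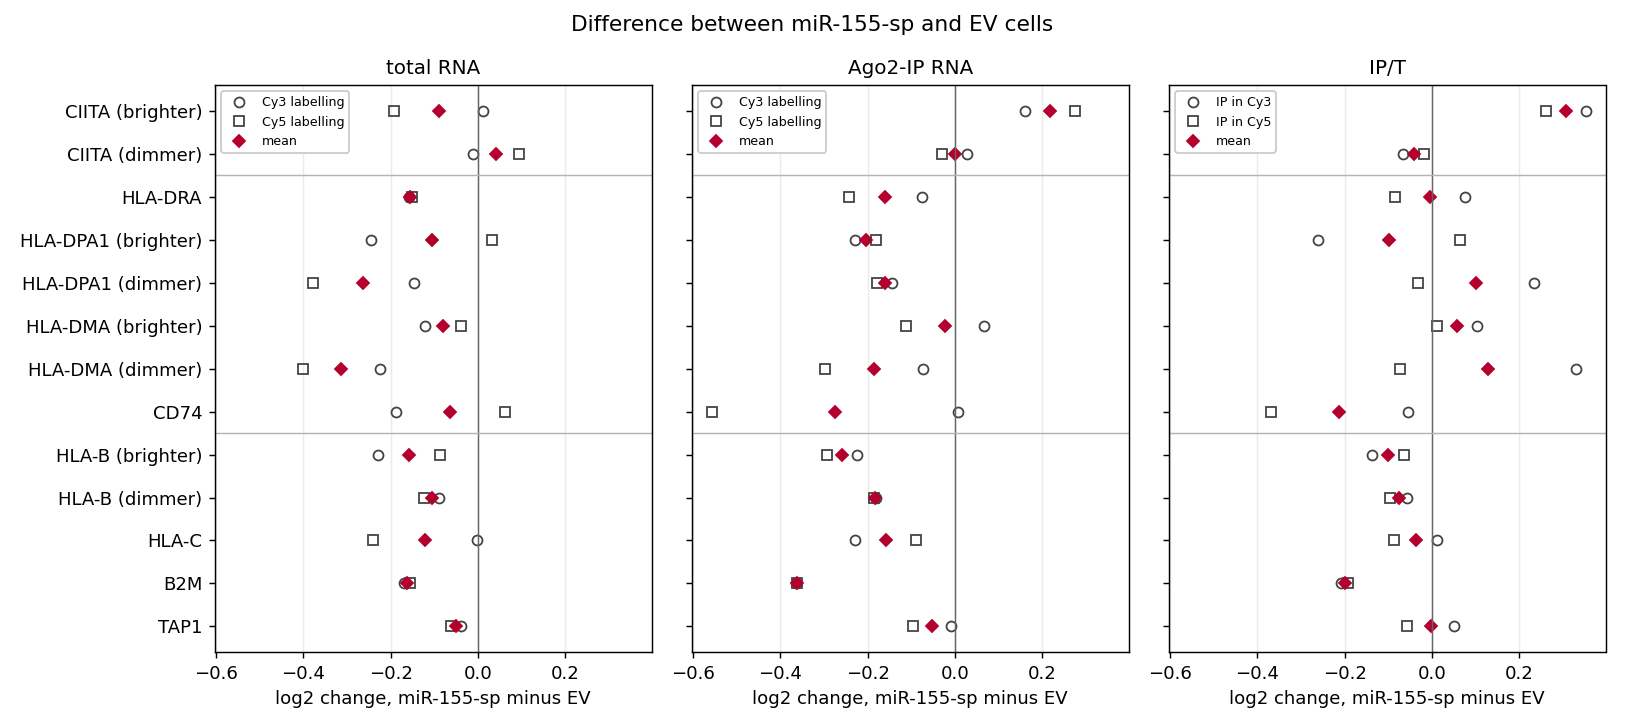
Log2 difference between sponge and EV cells (x axis) of each member probe (rows) in total RNA, in Ago2-IP RNA and in IP/T, with open symbols for each labelling or dye orientation and red diamonds for the mean. In total RNA and in IP nearly all diamonds lie left of 0, between -0.36 and 0.22, and in IP/T they scatter around 0 with the brighter CIITA probe at 0.31.

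Among the probes whose 4 sample means, centred per probe, were closest to those of the brighter CIITA probe were FCF1 and BCAM, at Euclidean distances of 0.0265 and 0.0302 on the log2 scale over 4 samples. Closest to the median profile of the class II members were TSPYL2 (0.00476), CDKN3 (0.0110) and DSTN (0.0113). Such likeness was common, as 65 and 100 of 10061 named probes lay closer than 0.1 to the 2 profiles, and 4 samples can hardly tell them apart.

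The other genes of the pathway comprised 95 probes, of which 76 passed the filters, for 52 genes. Their median log2 IP/T in EV cells was -0.24, as over all retained probes, and 11 had a ratio of at least 2 (14.5%, against 14.8% of all retained probes) and 6 of at most 0.5 (7.89%, against 12.9%). The lists differed in where they lay. Chains, loading, processing and immunoproteasome genes had medians below 0, and promoter factors, the interferon-gamma axis and co-stimulation genes had medians above 0. The latter were also the dimmest of these lists, with median log2 signals of 8.04, 7.90 and 7.75 in EV total RNA. The other lists had medians of 9.18 to 13.90, and all retained probes 9.37. Several probes of the dim lists were well above background in only 1 labelling of EV total RNA. Whether dimness bears on their IP/T was not tested.

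Other class II chains and chaperones had 15 of 18 probes retained and a median log2 IP/T of -0.27. None reached 2. HLA-DOA, a subunit of HLA-DO that restrains HLA-DM, had ratios of 0.369, 0.477 and 0.934 on its 3 retained probes, so that its probes disagreed. The highest ratio was 1.23 on a probe of HLA-DRB5, a DR beta chain whose other probe gave 0.871. In total RNA 13 of the 15 were lower in sponge cells, against 8952 of the 17912 retained probes, with a median of -0.14. In both labellings 11 were lower (73.3%, against 32.9% of all retained probes).

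Endosomal processing genes had 8 of 11 probes retained, a median of -0.31 and values on both sides. At or below 0.5 were the probe of the protease gene CTSD (0.432) and 2 of 3 probes of the protease gene CTSB (0.434 and 0.457). The third CTSB probe was at 0.669 and well above background in 4 of the 8 channels. The CTSD probe was well above background in only 1 labelling of the IP RNA of each cell population. CTSS, the protease that trims the invariant chain, had 2.19, and CD83, a surface protein that keeps class II molecules at the cell surface, had 3.03. In total RNA 5 of the 8 were lower in sponge cells in both labellings, against 32.9% of all retained probes.

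On the class I side, the other heavy chains had 8 of 9 probes retained and a median of -0.40. The highest ratio was 0.941, on a probe of HLA-G whose orientations fell on opposite sides of 1 (1.20 and 0.741). The other HLA-G probe was well above background in no channel. Of the 8 retained heavy chain probes 3 were lower in total RNA in both labellings, against 32.9% of all retained probes. Peptide loading genes had 8 of 17 probes retained and a median of -0.30, from 0.374 for a probe of PDIA3, a disulphide isomerase of the loading complex, to 1.66 for TAPBP (tapasin), which bridges TAP and the heavy chain. The other PDIA3 probes gave 0.796 and 0.889. Of the 8 retained peptide loading probes 6 were lower in total RNA in both labellings, against the same 32.9%. The immunoproteasome and its activator had all 6 probes retained and a median of -0.54. Ratios ran from 0.530 for the subunit PSMB9 to 0.978 for a probe of the activator PSME1, whose other probe gave 0.716. Of these 6 probes 1 was lower in total RNA in both labellings, against the same 32.9%.

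The factors that hold CIITA at class II promoters had all 11 probes retained and a median log2 IP/T of 0.45. One probe each of NFYC (3.17) and NFYB (2.02), which bind the Y box, and of CREB1 (2.88), which binds in the X box, was at 2 or above. The other retained probes of these genes were lower, with 1.36 for NFYC, 1.26 and 1.37 for NFYB, and 0.738 and 1.10 in the 2 orientations for CREB1. RFXANK, a subunit of the RFX complex, was lowest at 0.615. The median change of the 11 probes in total RNA was 0.00, and 3 were lower in both labellings, against 32.9% of all retained probes. The CREB1 probes were well above background in 6 and 5 of the 8 channels, and each in only 1 labelling of EV total RNA.

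The interferon-gamma axis, the signalling route known to induce CIITA and class I genes, had 14 of 16 probes retained and a median of 0.63. The highest ratios were those of SOCS1, an inhibitor of JAK kinases, at 19.2 (22.8 and 16.2) and 9.24 (9.65 and 8.85) on its 2 probes. IRF1 (3.40) and IRF2 (2.36), transcription factors that bind interferon elements, followed, and IFNGR1, a receptor chain, was lowest at 0.708. In total RNA 5 of the 14 were lower in both labellings, against 32.9% of all retained probes.

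Co-stimulation genes had 6 of 7 probes retained and a median of 0.46. PDCD1LG2, which encodes the checkpoint ligand PD-L2, had 6.98 and was well above background in 6 of the 8 channels. In total RNA it was so in only 1 labelling of each cell population, so its ratio and its change in total RNA rest on weak signals. CD80 had 3.22 and 1.69 on its probes and CD40 was lowest at 0.581. In total RNA these genes had a median change of -0.31 and 5 of 6 probes were lower in both labellings, against 32.9% of all retained probes. The CD80 probes were at -0.79 (-0.66 and -0.92) and -0.38 (-0.06 and -0.70), and PDCD1LG2 was at -0.54 (-0.77 and -0.32). The CD86 probes differed in sign, with -0.23 (-0.18 and -0.28) on one and 0.78 (0.70 and 0.85) on the other, which was well above background in 5 of the 8 channels. No retained probe of these pathway lists changed 2-fold with the sponge in total RNA or in IP/T, against 0.363% and 1.45% of all retained probes.

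**Figure D4:**
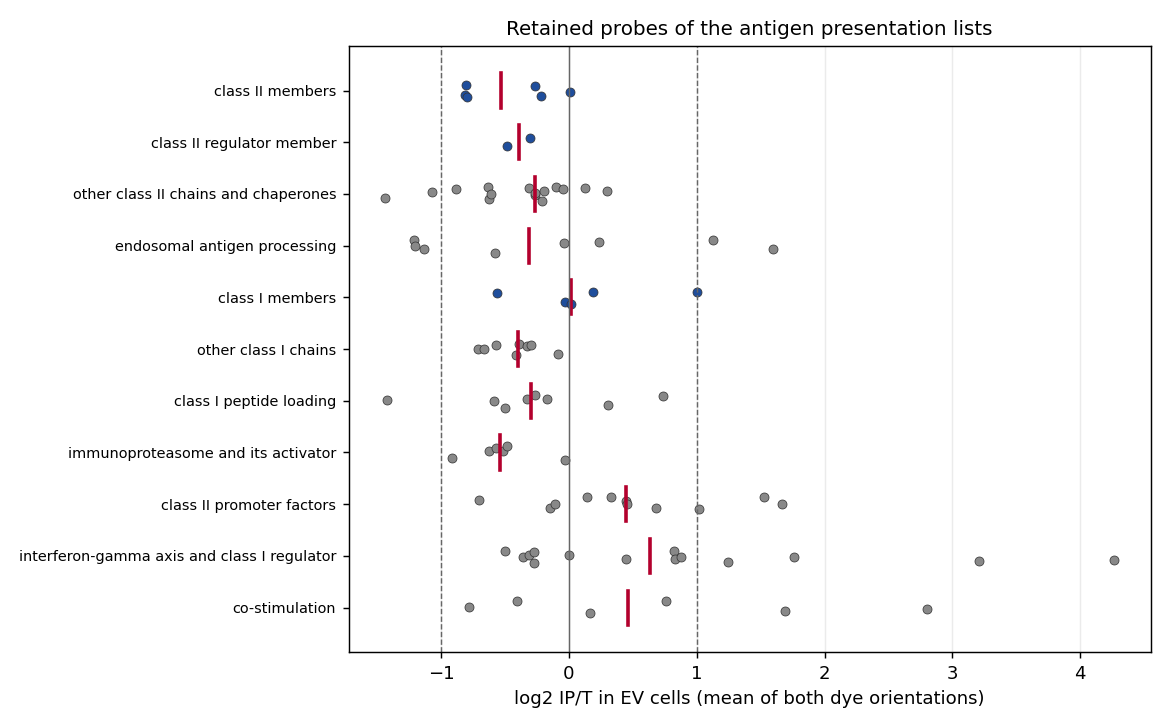
Log2 IP/T in EV cells (x axis) of each retained probe of the antigen presentation lists (rows), with members in blue, other genes in grey and red bars for the list median. Dashed lines mark 2-fold. Promoter factors, the interferon-gamma axis and co-stimulation have medians of 0.45, 0.63 and 0.46, and the other lists lie between -0.54 and 0.02.

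Cell identity was checked with marker lists. Of 8 Hodgkin lymphoma marker genes 7 were retained, CCL22 being well above background in no channel. Of 9 B-cell programme genes 2 were retained, CD79A and POU2F2, and CD79B, CD22, SPI1 and PAX5 were well above background in no channel. Low B-cell genes are usual in Hodgkin lymphoma cells. Past 2-fold in EV cells were 1 of 2 probes of IRF4 (2.02, the other 1.59) and of FSCN1 (0.488, the other 0.550), and the probes of CCL17 (0.398), MIR155HG (0.426), the host gene of miR-155, and POU2F2 (2.77). T-cell markers had 2 of 7 probes retained, of CD2 and CD3E. CD2 had an IP/T of 0.204 and was well above background in only 1 labelling of the EV IP RNA. The CD3E probe was well above background in 4 of the 8 channels and changed by 1.01 in log2 IP/T with the sponge. Myeloid markers had 3 of 6 probes retained, with CD163, FCGR3A and LYZ well above background in no channel. Of the retained myeloid markers, CD14, CSF1R and ITGAM, 1 was lower in total RNA of sponge cells in both labellings, against 32.9% of all retained probes. It was CSF1R, with a log2 change of -0.48 (-0.39 and -0.58). The samples are a cultured cell line sorted for GFP.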

How the data were processed

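The authors' files were scanner output of 4 arrays, in which the spot intensity values were background-subtracted and dye-normalized by Agilent Feature Extraction 10.7.3.1 per the file headers, and a deposited table of log2 values that the study's methods describe as quantile-normalized and filtered. Each sample was read from its own channel. Control spots and outliers (74 to 100 gene spots a channel) were dropped. No gene spot was saturated. Spots of a probe were averaged, log2 signals were quantile-normalized over 8 channels, and probes were retained if well above background in at least 4 channels and if Cy3 and Cy5 were no more than 2-fold apart in any of the 4 samples (17912 probes, 43.7%). The deposited log2 values held 16065 probes, 16057 of them retained here, and differed from the values computed here by a median of 0.000557.

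The log2 IP/T of a probe is the mean of its IP labellings minus that of its total RNA labellings. Quantile normalization makes ratios relative to all transcripts. Counts past a 2-fold ratio and medians beside those of all retained probes replace tests. Identifiers were matched to RefSeq (GRCh38.p14), which named 23958 probes, 12994 of the retained. Gene coordinates are not printed because the array design used hg18.

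The members and the gene lists were chosen with earlier results of these data known. The text names all member probes and, of each pathway list, every retained probe past 2-fold and those with the highest and lowest IP/T in EV cells. Marker lists are given by detection, with the probes past 2-fold named. A few items that this rule covers are not reported here. Alternatives were other normalizations, background corrections (limma 3.58.1, R 4.3.3, normexp offset 50), filters, averaging, single labellings and the deposited values. One, without the B2M probe, was added after the data were seen. Python 3.11.15, numpy 2.4.6 and pandas 2.3.3 were used, and the code was tested on simulated data.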

Additional observations from a re-analysis of the deposited data

How the results depend on the processing

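With 1 RNA per group and 4 arrays, no setting gives a replicate error, and a change within the spread of the labellings cannot be read. No paired analysis was possible because the 2 labellings with a shared number are technical and each group is 1 sample. Over the settings tried, 130 of the values for medians and counts moved by less than that spread (for counts, less than 1.5 times) and 14 by more. The 130 include settings that could not change a value. These dropped the detection or agreement filter or required detection in all channels, and all 13 member probes pass each of these. The deposited values were also nearly those computed here, so the 130 overstate how stable the results are. The median log2 IP/T in EV cells of class II probes was -0.53 as reported, -0.26 with labellings within 1.5-fold (5 probes) and -0.25 with normexp and loess. The median change of class I probes in total RNA was -0.12, -0.0522 with a common median, -0.157 with normexp and loess, and -0.123 to -0.0890 with 1 labelling left out. Their median change of log2 IP/T was -0.08, and with a common median 0.0305. In EV cells 1 member had a ratio of 2 or more, and this count was 0 with IP in Cy5 alone, a common median, normexp with loess, normexp with quantile normalization or the deposited values, and 0 to 1 with 1 labelling left out, because B2M lies at the line. The count of members whose ratio was lower with the sponge was 9, was 4 with a common median and lay between 3 and 9 with 1 labelling left out. Without the B2M probe, added after the data were seen, the class I medians were -0.01 for log2 IP/T in EV cells, -0.11 for the change in total RNA and -0.06 for that of log2 IP/T. Counts lower in total RNA lay between 10 and 13, in IP between 9 and 12, and with IP/T below 1 in EV cells between 8 and 11. Apart from the settings named, the causes were not tested. Of single-probe values 583 moved by less than the spread and 63 by more, and the 583 again include the settings that could not change a value.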
